A study of Physcomitrium patens with 20 samples.

Results

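The comparison described here set moss protonema that lacks both MET and DNMT3b against wild-type protonema. The libraries were taken by their labels and column names, 3 of met/dnmt3b and 3 of wild type (wt), 6 of the 20 in the series. Each library is polyadenylated RNA from protonema, the filamentous juvenile tissue, of 7-day-old Physcomitrium patens (cultivar Grandsen in the labels), grown without any treatment. All groups share that tissue, age and cultivar. The met/dnmt3b plants carry mutations in both methyltransferase genes, and the met and dnmt3b plants, used for comparison with 2 and 3 libraries, carry 1 of these mutations each. Mutants of the DRM methyltransferase genes (drm12), of CMT (cmt) and of CMT and DNMT3b (cmt/dnmt3b), with 3 libraries each, enter the fit and are set beside met/dnmt3b in places. How the mutant lines were made, how many independent lines each group holds, and whether replicates came from separate cultures are not stated in the labels. The p-values therefore describe the spread among the libraries alone, which could be technical.

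DNA methylation in plants occurs in CG, CHG and CHH contexts (H is any base but G), each kept up by its own enzymes. MET copies CG methylation onto the new strand after DNA replication, and CMT, which met/dnmt3b plants retain, does this for CHG. DNMT3b is the enzyme mainly in charge of CHH methylation in moss heterochromatin. Methylation in all of these contexts is best known for keeping transposable elements (TEs), the mobile repeats that fill much of heterochromatin, from being transcribed.

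The libraries differed in batch as the labels give it. The 3 met/dnmt3b libraries, both met libraries and wt replicates 1 and 2 were in batch 1, while wt replicate 3 and the 3 dnmt3b libraries were in batch 2. The 6 libraries held between 14236575 and 18574029 counts. Genes of chromosome 19 (chromosome read from the identifiers) lay a median of 0.95 on the log2 scale above their usual level in wt replicate 3 (508 genes), while the other 161 pairs of library and chromosome among these 6 libraries lay between -0.111 and 0.096. Replicates of wt also varied more than those of met/dnmt3b, with a median coefficient of variation over the tested genes of 24.5% against 15.8%. The identity of tissue and mutants could not be checked on marker genes or on MET and DNMT3b themselves, because 0 of 31967 gene identifiers matched the RefSeq gene table given, and the counts carry no gene names. For the same reason genes are described here by level and group, and at most 2 that rose and 2 that fell are named. In tissue libraries a change in level cannot be told apart from a change in the share of the cells that hold the transcript.

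TEs took a larger part of the transcripts in met/dnmt3b. Their share of all counts was 0.364%, 0.450% and 0.308% in met/dnmt3b replicates 1 to 3, against 0.0698%, 0.0561% and 0.109% in wt. Every met/dnmt3b library lay above every wt library, and the wt library nearest to them was the one from batch 2. The means were 0.374% ± 0.0715 and 0.0784% ± 0.0276 (SD, n = 3 each), a ratio of 4.77, with p = 0.1 by a two-sided exact permutation test, the lowest value possible with 3 libraries in each group. Within batch 1 the ratio was 5.94 (exact permutation p = 0.2, the smallest that 3 against 2 can give).

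More TE rows were transcribed in met/dnmt3b than in wt. At a common depth of 14236575 counts, 9729, 9020 and 7987 of the 241351 TE rows had at least 1 count in the met/dnmt3b libraries, against 1249, 1595 and 3216 in wt. The groups did not overlap, and their means differed 4.41-fold. The counts were also spread over more rows. In met/dnmt3b, between 482 and 503 TE rows held 50% of the TE counts, against 24, 35 and 144 in wt replicates 1 to 3. The corresponding number was 55 and 13 in the met libraries and between 407 and 418 in dnmt3b. The 10 most abundant rows held 12.3 to 13.1% of TE counts in met/dnmt3b and 30.9 and 45.8% in met. In this measure of spread the met/dnmt3b libraries were thus near the dnmt3b libraries and far from met, although they share the batch of met. In wt, as in drm12 and cmt, the other genotypes with libraries in both batches, the batch 2 library had the largest number of such rows (264 in drm12 and 169 in cmt, against 22 to 40 in their batch 1 libraries), so the value of dnmt3b cannot be told apart from its batch.

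**Figure D1:**
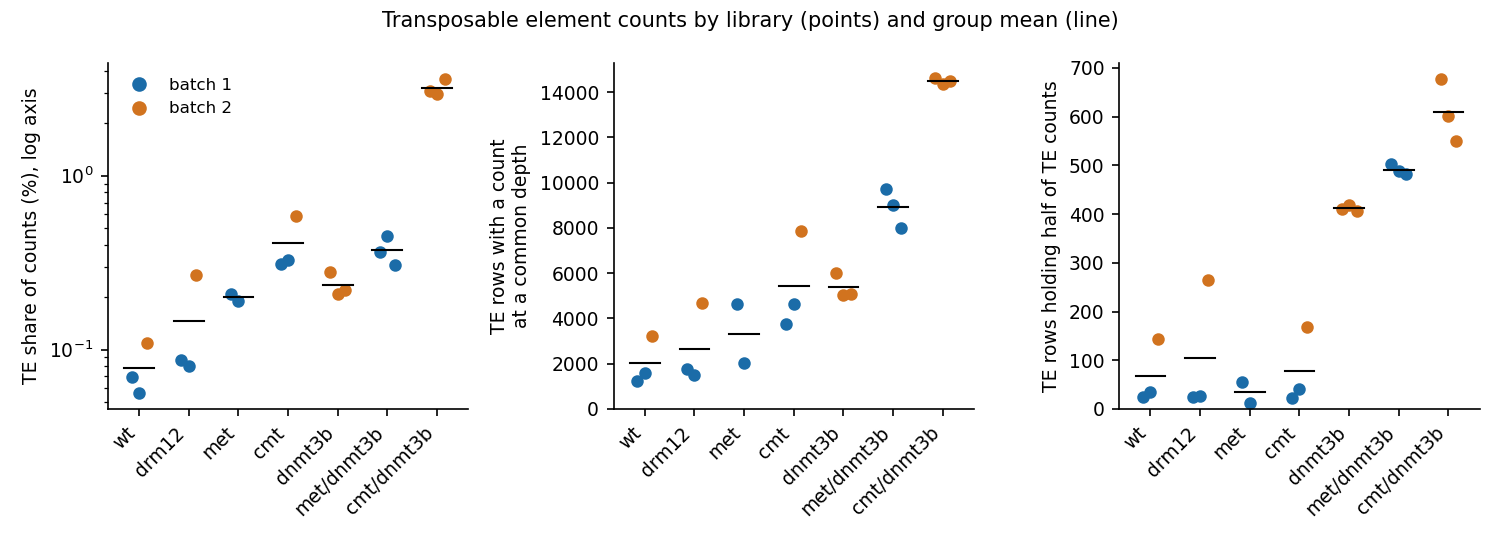
TE share of counts (left, log axis), TE rows with a count at a common depth of 14236575 counts (middle) and number of TE rows that hold 50% of the TE counts (right), for each library of the 7 genotypes, with points coloured by batch and a line at the group mean. The 3 met/dnmt3b points lie above all wt points in each panel, and in wt the batch 2 point is the highest.

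Far more rows were detected in met/dnmt3b alone than in wt alone, a count that needs no filter or model. There were 2710 TE rows with a count in every met/dnmt3b library and in no wt library, and 14 with the reverse pattern. For genes these numbers were 306 and 10. The table holds 241351 TE rows and 31967 gene rows, of which 28715 and 25846 had a count in any of the 20 libraries. As a share of all rows, 2710 and 306 were close. Among rows with a count in any library, the share was larger for TEs. Many of these rows held few counts, and 1469 of the 2710 TE rows and 135 of the 306 genes had at least 10 counts in sum. With the batch 1 wt libraries alone as the reference, the numbers were 4089 and 37 for TEs and 416 and 45 for genes. Of the 2710 TE rows, 2019 had a count in at least 1 of the 3 dnmt3b libraries and 1219 in at least 1 of the 2 met libraries. Of the 306 genes, 218 had a count in dnmt3b and 193 in met. These numbers favour dnmt3b, which has more libraries than met. For TEs its batch also does. At the common depth the batch 2 library had the most TE rows within wt, drm12 and cmt (3216, 4659 and 7869). The 2 single mutants can therefore not be ranked by these numbers. The depths of wt and met/dnmt3b were close, but a count of 0 still allows up to 3 counts. Rows without a wt count were therefore not detected in wt rather than absent. The number of genes with a count moved in the same direction, with 22373, 22562 and 22375 in met/dnmt3b at the common depth against 21343, 21339 and 20795 in wt.

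Single TEs were then tested with the quasi-likelihood method of edgeR, with batch as a term and p-values adjusted by Benjamini and Hochberg over all 26751 genes and TEs that passed a low-count filter. Of the 6602 TEs tested, 3495 rose (52.9%) and 9 fell (0.136%), so that 53.1% were called. The filter admits a TE for its level in as many libraries, of any genotypes, as the smallest group holds. The tested TEs are therefore mostly rows that some mutant transcribes. Among these 3495, wild type had 0 counts in all 3 libraries for 1720, and 2884 had every met/dnmt3b library above every wt library, a pattern found in 50.9% of the tested TEs, against 0.576% with the reverse order. The median TE among those that rose went from 0.0224 CPM (counts scaled to the effective library size) in wt to 0.379 CPM. The ratio of these mean levels had a median of 2.58 on the log2 scale. Over the 5864 tested TEs with a count in either group it was 1.72. TEs at 0 in wt were set to 3 counts over the group, or 0.0704 CPM. This is an upper limit of their wt level, so their ratios are lower limits. The fitted log2 fold changes, which remove the batch difference, were larger. Their median was 5.92 for TEs that rose and 4.50 for all tested TEs. With no batch term it was 3.19 for all tested TEs. These fitted values depend on the small count that the fit adds to rows at 0.

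Most of the TEs that rose stayed at low levels. A mean of at least 1 CPM was reached by 490 of the 3495, of at least 5 CPM by 59 and of at least 10 CPM by 30, and the 10 with the largest gain made up 16.4% of the summed gain. In 1541 of these TEs the highest wt value was that of replicate 3, and in 42 it was the lowest of the wt values. The number of TEs that passed the test depended on the libraries used and on the batch term. Without wt replicate 3, 1949 rose and 6 fell, and leaving out any other library of these groups gave between 2641 and 3206 rises. Within batch 1, on the same rows, 1453 rose and 7 fell, and with no batch term 1144 rose and 7 fell.

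The TEs with the largest gain in CPM were 929068 and 912113, the row numbers being the only identity the counts give. TE 929068 had 0.605, 0.790 and 0.507 CPM in wt and 87.4, 115.9 and 74.2 CPM in met/dnmt3b replicates 1 to 3. It was near 0 in each wt library and high in each met/dnmt3b library, and the fitted log2 fold change was 6.90 ± 0.64 (SE, edgeR adjusted p = 1.63e-06). In the single mutants it stood at 187.8 and 421.2 CPM in met and between 0.601 and 1.82 CPM in dnmt3b. The level in met/dnmt3b was therefore above that of dnmt3b (log2 difference 5.32 ± 0.71, edgeR adjusted p = 0.0003) and below that of met (-1.72 ± 0.49, edgeR adjusted p = 0.0364). This TE was also high in cmt (268 to 286 CPM) and in cmt/dnmt3b (271 to 465 CPM).

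TE 912113 showed the same order against wt and dnmt3b. It had 0.135, 0.287 and 0.362 CPM in wt, 86.4, 116.7 and 71.1 CPM in met/dnmt3b, 184.2 and 95.2 CPM in met, and 1.46 to 2.13 CPM in dnmt3b. The groups of wt and met/dnmt3b did not overlap (fitted log2 fold change 9.49 ± 0.87, edgeR adjusted p = 1.57e-06). It was higher than in dnmt3b (8.03 ± 0.92, edgeR adjusted p = 9.64e-05), while the difference from met did not pass the test (-0.61 ± 0.57, edgeR adjusted p = 0.508). In cmt this TE had 1.04, 1.38 and 24.0 CPM, and in cmt/dnmt3b 101 to 151 CPM.

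Few TEs fell, and those with the largest loss in CPM were already transcribed in wild type, as a ranking by CPM difference requires. TE 809690 had 22.3, 13.1 and 27.4 CPM in wt and 8.10, 8.88 and 5.47 CPM in met/dnmt3b, with no overlap (log2 fold change -1.22 ± 0.29, edgeR adjusted p = 0.00596). It was 18.7 and 14.9 CPM in met and 27.2 to 39.5 CPM in dnmt3b, and lower in met/dnmt3b than in either (edgeR adjusted p = 0.0269 against met and 0.0259 against dnmt3b). TE 879436 had 13.2, 9.40 and 15.3 CPM in wt and 5.95, 7.36 and 4.51 CPM in met/dnmt3b (-1.07 ± 0.30, edgeR adjusted p = 0.0172). Its levels of 10.3 and 11.3 CPM in met and 12.1 to 14.0 CPM in dnmt3b lay above those of met/dnmt3b, without passing the test (edgeR adjusted p = 0.0907 and 0.0861). Without wt replicate 1 neither fall passed the test (edgeR adjusted p = 0.0639 for 809690 and 0.0749 for 879436), and that of 879436 also did not without met/dnmt3b replicate 3 (0.0765), within batch 1 (0.0527) or in a fit of the wt and met/dnmt3b libraries alone (0.0738).

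**Figure D2:**
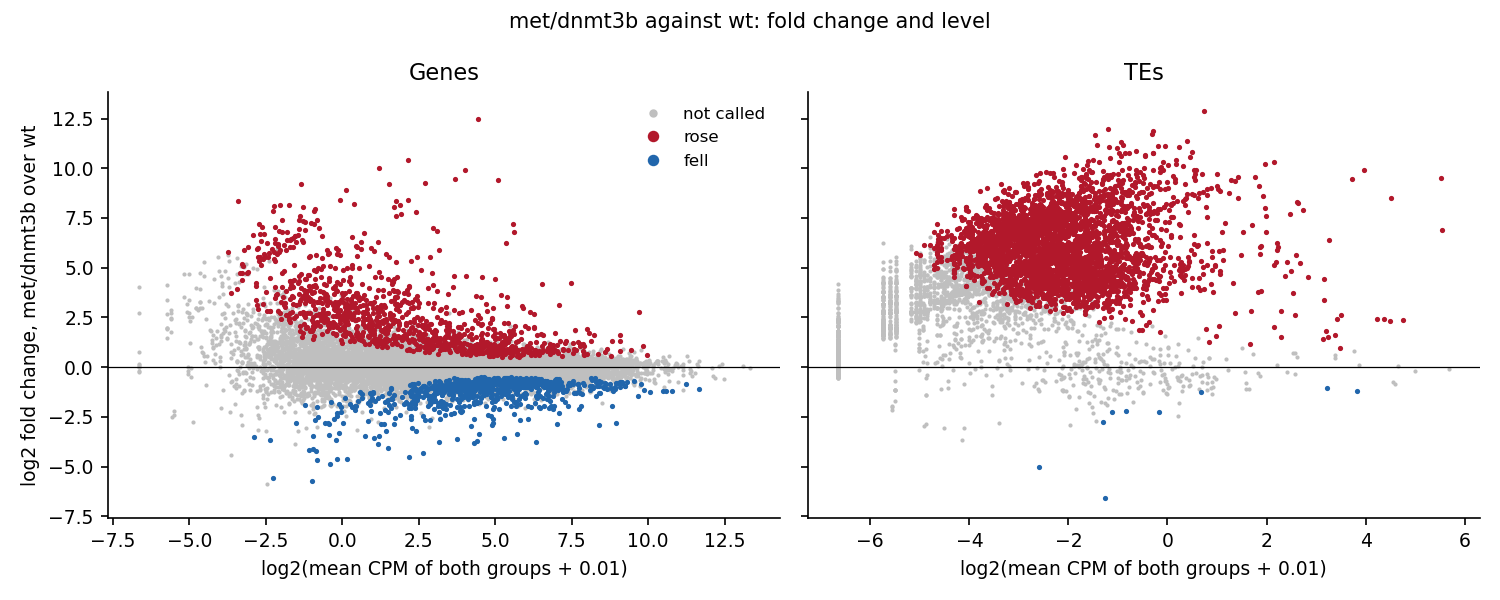
Fitted log2 fold change of met/dnmt3b over wt against the log2 of the mean CPM of both groups plus 0.01, for 20149 genes (left) and 6602 TEs (right). Red points rose and blue points fell at an edgeR adjusted p under 0.05, 1096 and 855 genes and 3495 and 9 TEs. The genes that fell lie towards the right of the plot and the largest rises towards the left.

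Among the 20149 genes tested, 1096 rose (5.44%) and 855 fell (4.24%), together 9.68%, in met/dnmt3b by the same fit. The genes that rose and those that fell differed in their level. The median gene that rose had a mean of 0.922 CPM in wt and 5.28 CPM in met/dnmt3b, and the median gene that fell had 34.2 and 17.3 CPM. The ratio of the group means had a median of 2.04 on the log2 scale among the genes that rose, with genes at 0 in wt set to 3 counts over the group, and the fitted log2 fold change had a median of 2.21. Among the genes that fell these medians were -0.995 and -1.04, against -0.05 and -0.03 over all genes tested. All met/dnmt3b libraries lay above all wt libraries for 1047 of the genes that rose, a pattern seen in 14.7% of the tested genes, and below them for 637 of those that fell, seen in 13.7%.

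Grouped by the mean level over the 20 libraries, the direction of the calls turned with the level. Of the 1278 tested genes with a mean under 0.5 CPM, 14.6% rose and 0.861% fell. Of the 3726 genes from 0.5 to 5 CPM, 12.2% rose and 2.55% fell. In the 10780 genes from 5 to 50 CPM, 3.33% rose and 4.72% fell, and in the 4365 genes of 50 CPM and over, 2.25% rose and 5.50% fell. The low classes hold genes that passed the filter through the libraries in which they are high, so their share of rises is in part set by the filter. Among called genes the fitted log2 fold change was larger in the low classes in both directions, with medians of 4.15 for rises and -3.52 for falls in the lowest class and of 0.90 and -0.92 in the highest. A gene near 0 needs a larger fold to be called, so these medians are a description of the calls.

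**Figure D3:**
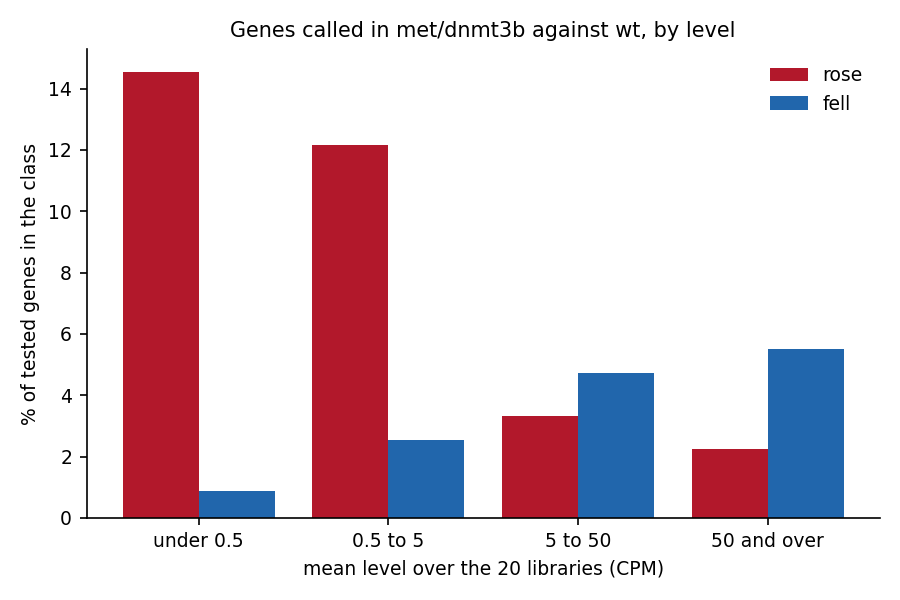
Share of the tested genes that rose (red) or fell (blue) in met/dnmt3b against wt at an edgeR adjusted p under 0.05, in 4 classes of mean CPM over the 20 libraries. Rises outnumber falls under 5 CPM (14.6% against 0.861% in the lowest class), and falls outnumber rises above it (5.50% against 2.25% in the highest).

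Genes close to undetected in wild type were among the rises. Of the 1875 tested genes with a wt mean under 0.5 CPM, 452 rose (24.1%) and 3 fell. Of the 155 tested genes with 0 counts in the 3 wt libraries, 81 rose. A gene this low in wt can hardly fall, and many passed the filter through a mutant, so the share is in part set by the choice of genes. Their transcripts mostly stayed rare. Of the 81, 11 reached a mean of at least 1 CPM in met/dnmt3b and 1 reached 10 CPM. Summed over the 452 genes, the level was 62.1, 86.6 and 55.8 CPM in wt replicates 1 to 3 and 1005, 1010.5 and 892 CPM in met/dnmt3b. The same genes summed to 246 and 149 CPM in met and to 222 to 270 CPM in dnmt3b, above each wt library and below each met/dnmt3b library. The drm12 libraries, with neither mutation, also lay between (111 to 194 CPM), as did those of cmt (400 to 513 CPM). In cmt/dnmt3b the sum was 1054 to 1148 CPM. The values of wt and met/dnmt3b chose these genes. Their distance, and the place of other genotypes between them, is therefore a description and not a further test.

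The other 644 genes that rose were transcribed at 0.5 CPM or more in wild type and carried most of the gain in CPM. Their summed level went from 15984 ± 901 CPM in wt to 35518 ± 2317 CPM in met/dnmt3b (SD, n = 3 each). It was 18977 ± 1236 in met (n = 2) and 22251 ± 1322 in dnmt3b (n = 3). The means of drm12 (17065 CPM), cmt (19973 CPM) and cmt/dnmt3b (26130 CPM) also lay between those of wt and met/dnmt3b. The values of wt and met/dnmt3b chose these genes too, so these sums are a description and not a further test. The 10 genes with the largest gain made up 23.5% of the gain of all 1096 genes. The 855 genes that fell went from 81108 ± 15049 CPM in wt to 41077 ± 1201 CPM in met/dnmt3b (n = 3 each). These genes were chosen as high in these wt libraries, and their summed mean was below that of wt in every other genotype, at 67215 CPM in drm12, 56649 in cmt, 54574 in met, 45989 in dnmt3b and 31549 in cmt/dnmt3b. The wt libraries varied widely in this sum, at 84321, 94290 and 64712 CPM, and wt replicate 3 was the lowest of the wt libraries for 447 of the 855 genes. The dnmt3b libraries share batch 2 with that low wt library, so their level for these genes cannot be told apart from the batch. Over the 3495 TEs that rose, the summed level was 115, 145 and 409.6 CPM in wt and 2843, 3216 and 2402 CPM in met/dnmt3b. It was 1414 and 1256 CPM in met and 1234 to 1734 CPM in dnmt3b. The wt and met/dnmt3b values chose these TEs, so their sums describe selected rows and are not a further test. For the same TEs the sum in cmt/dnmt3b, the mutant that lacks CMT in place of MET, lay between 16773 and 19458 CPM. The batch 2 library had the highest sum of these TEs in wt, in drm12 (1627 CPM against 303 and 241) and in cmt (3618 CPM against 1876 and 2057). The dnmt3b and cmt/dnmt3b libraries are all in batch 2, and the part of the batch in their sums was not tested.

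**Figure D4:**
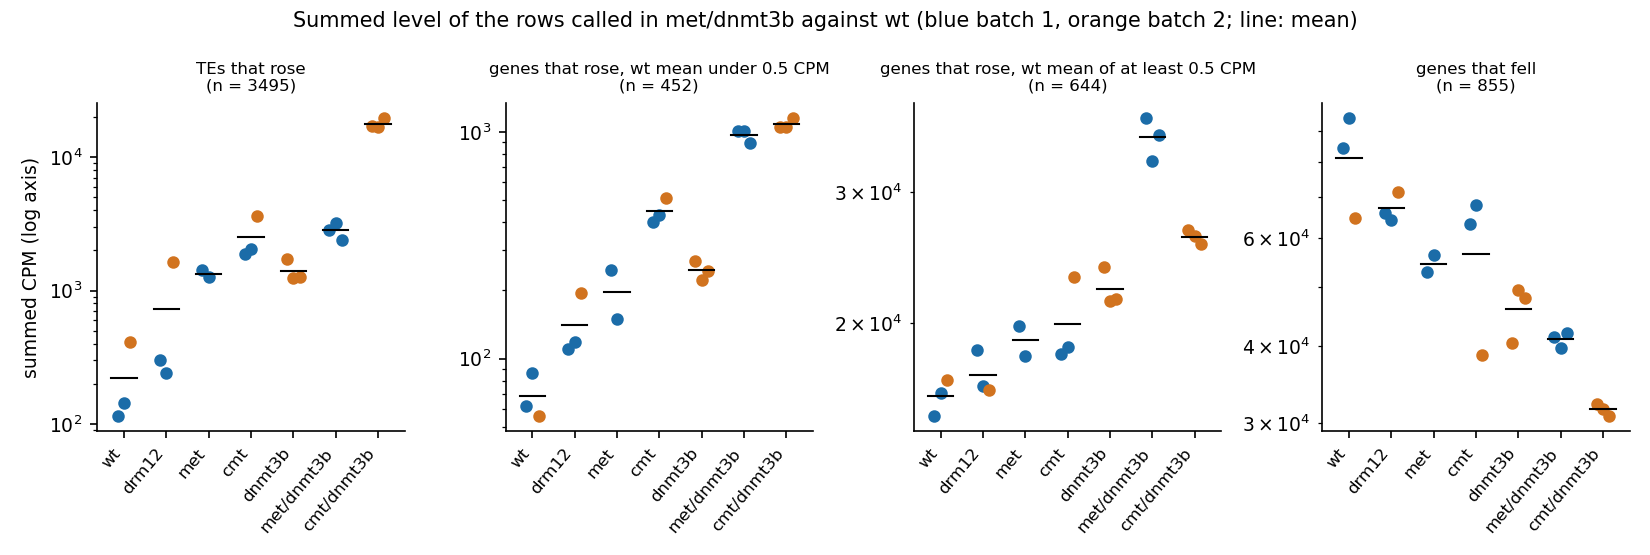
Summed CPM (log axes) of the TEs and genes called in met/dnmt3b against wt, in each library of the 7 genotypes, coloured by batch with a line at the group mean. Genes that rose from under 0.5 CPM in wt summed to 892 to 1010.5 CPM in met/dnmt3b, 149 to 246 CPM in met and 222 to 270 CPM in dnmt3b. They summed to 111 to 194 CPM in drm12, 400 to 513 CPM in cmt and 1054 to 1148 CPM in cmt/dnmt3b. The genes that fell had a lower mean than wt in all 6 mutants.

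Of the genes with the largest gain in CPM, Pp3c16_80 had 237, 140.1 and 386 CPM in wt and 1572, 1247 and 1453 CPM in met/dnmt3b replicates 1 to 3. Each met/dnmt3b library exceeded the highest wt library more than any wt library differed from another, and the fitted log2 fold change was 2.78 ± 0.25 (SE, edgeR adjusted p = 1.57e-06). It stood at 381 and 306 CPM in met and at 972, 823 and 757 CPM in dnmt3b. Its level in met/dnmt3b was higher than in either single mutant, by 2.05 ± 0.27 on the log2 scale against met (edgeR adjusted p = 0.000353) and by 1.39 ± 0.30 against dnmt3b (edgeR adjusted p = 0.00843). The gene was as high in cmt/dnmt3b, at 1413 to 1668 CPM, and had 612 to 744 CPM in cmt. Its difference from wt passed the test under all 19 alternatives computed for it.

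Pp3c3_7860 had 772, 649 and 282 CPM in wt and 1327, 1052 and 1447 CPM in met/dnmt3b. The groups did not overlap, and wt replicate 3, in batch 2, was the lowest library (log2 fold change 1.08 ± 0.27, edgeR adjusted p = 0.00862). In met it was 500.03 and 629 CPM and in dnmt3b 316 to 461 CPM, none above the highest wt library. It was higher in met/dnmt3b than in met (1.18 ± 0.31, edgeR adjusted p = 0.0269) and than in dnmt3b (1.25 ± 0.35, edgeR adjusted p = 0.0355). In cmt the gene had 525 to 692 CPM and in cmt/dnmt3b 669 to 917 CPM. Without wt replicate 3 the difference from wt was 0.80 on the log2 scale and did not pass the test (edgeR adjusted p = 0.0525).

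The genes with the largest loss in CPM were abundant in wild type, as a ranking by CPM difference requires. Pp3c22_540 had 2156, 2233 and 3319 CPM in wt and 1001, 796 and 1131 CPM in met/dnmt3b, with no overlap (log2 fold change -1.21 ± 0.23, edgeR adjusted p = 0.00133). It stood at 1325 and 1194 CPM in met and at 1354 to 2347 CPM in dnmt3b. In drm12 it had 1309 to 2314 CPM, in cmt 1108 to 1194 CPM and in cmt/dnmt3b 732 to 906 CPM. Pp3c25_3840 had 2129, 2149 and 1794 CPM in wt and 709, 1061 and 806 CPM in met/dnmt3b, again with no overlap (-1.22 ± 0.37, edgeR adjusted p = 0.0246). It stood at 1134 and 1626 CPM in met and 681 to 1567 CPM in dnmt3b. In cmt it had 1127 to 1685 CPM and in cmt/dnmt3b 789 to 1128 CPM. The drm12 libraries, with neither mutation, had 669, 1829 and 2213 CPM, the first below every met/dnmt3b library. For neither gene did the difference between met/dnmt3b and met or dnmt3b pass the test (edgeR adjusted p between 0.263 and 0.725). This does not show that their levels are alike. The fall of Pp3c25_3840 was not called without wt replicate 1 (edgeR adjusted p = 0.0825), wt replicate 2 (0.0681), met/dnmt3b replicate 1 (0.097) or met/dnmt3b replicate 3 (0.0768), nor with genes and TEs adjusted separately (0.062).

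**Figure D5:**
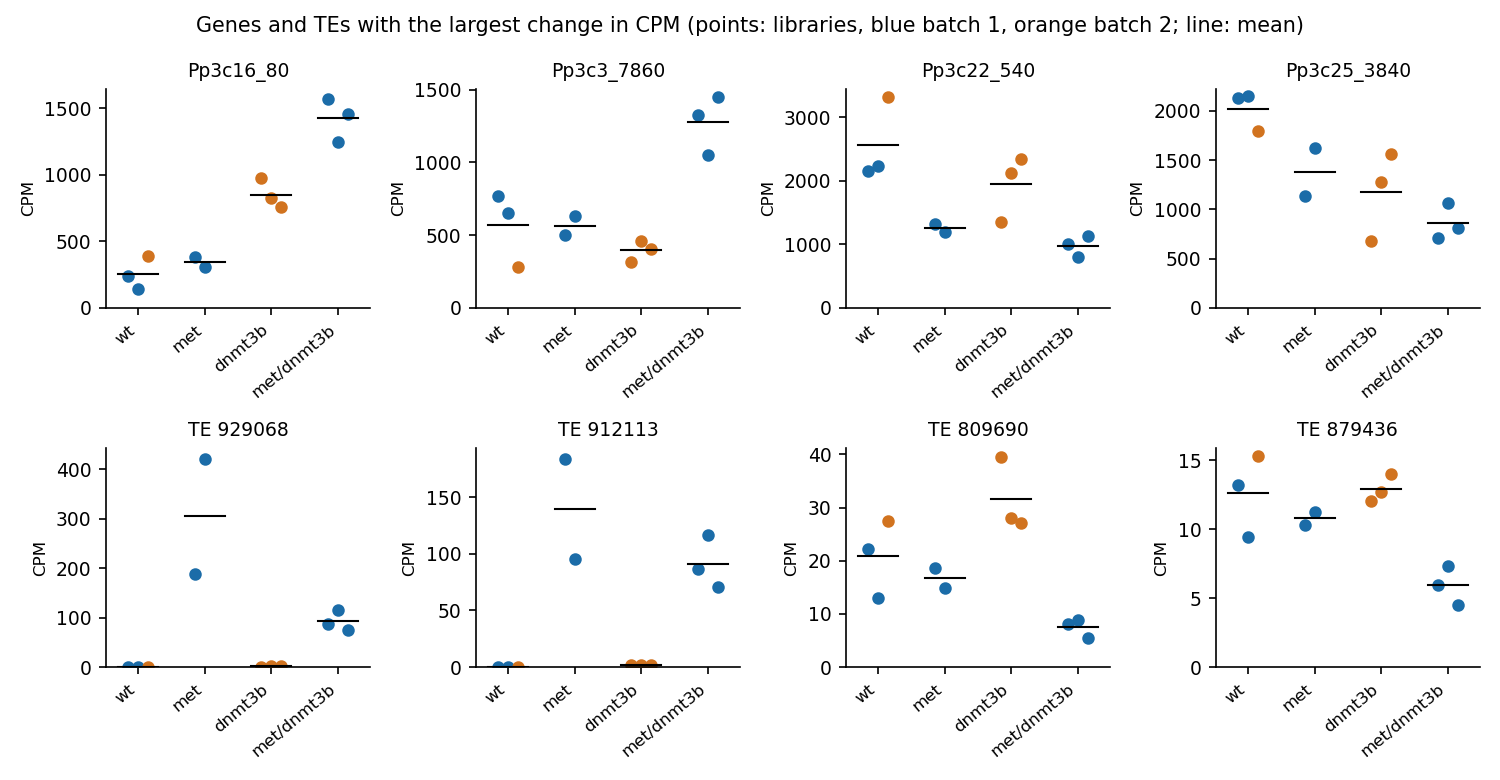
CPM in each wt, met, dnmt3b and met/dnmt3b library of the 2 genes that rose and the 2 that fell with the largest change in CPM (top) and of the corresponding TEs (bottom). Points are libraries, coloured by batch, and lines are group means. The wt and met/dnmt3b points do not overlap in any panel, and TEs 929068 and 912113 are high in met and met/dnmt3b only among these 4 genotypes.

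Genes that rose came from all 27 chromosomes that the identifiers name. Between 3.42% (chromosome 14) and 8.21% (chromosome 13) of the tested genes of a chromosome rose, and between 2.09% (chromosome 13) and 6.29% (chromosome 19) fell. Chromosome 19, which stood apart in wt replicate 3, also had the lowest share of rises but for chromosome 14, at 3.48%, and a median log2 fold change of -0.215 over its 604 tested genes. With its genes left out, 1075 genes rose and 817 fell. Genes that rose often lay beside each other. In the order of the identifiers, 231 of 1091 genes that rose (21.2%) had a tested neighbour that rose, against 1797 of 18156 tested genes that were not called (9.90%). Of the genes that fell, 129 of 853 (15.1%) had a neighbour that fell, against 1461 of 18156 (8.05%). The part of reads shared by overlapping or near-identical neighbours in these figures was not tested.

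The number of genes called depended on which libraries set the spread and the batch term. Without wt replicate 3, 676 genes rose and 691 fell. Without wt replicate 1 the numbers were 628 and 359, without met/dnmt3b replicate 1 they were 750 and 293, and without met/dnmt3b replicate 3 they were 829 and 404. Falls outnumbered rises without wt replicate 3, without met/dnmt3b replicate 2 (776 rose and 1046 fell) and with no low-count filter (1306 and 1624). They also did with only the 5 batch 1 libraries of wt and met/dnmt3b (1597 and 1695), without the drm12 libraries (1896 and 2764) and without drm12 replicate 3. Which direction held more genes thus depended on these choices. Adjusted apart from TEs, 673 genes rose and 338 fell. Within batch 1, on the rows of the full fit, 1179 rose and 1046 fell. Without drm12 replicate 3, a library outside this comparison whose TE share (0.270%) was above those of the other drm12 libraries (0.0874% and 0.0809%) and which helps to set the batch term, 1768 genes rose and 2511 fell, and the TE calls were 3401 rises and 21 falls.

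Each single mutant was then compared with met/dnmt3b in the same fit, to see where the mutant of both genes differed from them. Against met, which shares its batch, 1042 TEs were higher in met/dnmt3b (15.8% of those tested) and 10 lower (0.151%), together 15.9%. Of the genes 562 were higher (2.79%) and 660 lower (3.28%), together 6.06%. These counts depended on single libraries. With 1 met library left, the other groups supply the spread, which assumes that met varies as they do, and more features pass the filter (7743 TEs and 20766 genes without met replicate 2). Far fewer TEs and genes were called without met replicate 2 than without met replicate 1. The median log2 difference from met over the tested TEs was 2.31 with both met libraries. It was 3.67 without met replicate 1 and 1.93 without met replicate 2. Over the tested genes these medians were -0.041, -0.0011 and -0.057. Without met/dnmt3b replicate 1 the calls were 511 and 3 TEs and 279 and 80 genes, and without met/dnmt3b replicate 3 they were 674 and 3 TEs and 355 and 156 genes. Without met/dnmt3b replicate 2, 743 and 15 TEs and 453 and 916 genes were called, so the direction that held more genes differed with the library left out. Against dnmt3b, which lies in the other batch, 1568 TEs were higher in met/dnmt3b (23.8%) and 13 lower (0.197%), and 471 genes were higher (2.34%) and 273 lower (1.35%), together 3.69%. Without met/dnmt3b replicate 1, 279 genes were higher and 104 lower, without replicate 3 the numbers were 333 and 133, and without replicate 2, 976 TEs were higher and 11 lower. With no batch term those numbers were 446 and 25 TEs, and 1334 and 1279 genes, so the comparison with dnmt3b rests on the batch term.

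By level, higher genes outnumbered lower ones against both single mutants in the classes under 5 CPM, where the limit on low classes given above holds too. Of the 1278 tested genes with a mean under 0.5 CPM over the 20 libraries, 6.03% were higher in met/dnmt3b than in met and 0.156% lower, and 4.15% were higher than in dnmt3b and 0.235% lower. Of the 4365 genes of 50 CPM and over, 2.11% were higher and 2.04% lower than in met, and 1.95% were higher and 1.24% lower than in dnmt3b. Between 5 and 50 CPM, the class with most of the calls against met, 1.75% were higher and 4.86% lower than in met.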

How the data were processed

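Per the labels, polyadenylated RNA was purified from total RNA of 7-day-old protonema and sequenced. The deposited values are raw counts, 1 column for each of 20 libraries with genes and TEs as rows, and 0 columns lay outside the labelled samples. Per the submitters' processing notes, the tools include STAR 2.7.0f, Trim Galore 0.6.0 and cutadapt 1.15. How reads were counted (strand, reads with several positions) and on which build and annotation is not given in the sources used here. Such choices bear most on TEs and on near-identical or overlapping genes, whose single values are uncertain.

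Counts of all 20 libraries (7 genotypes) were fitted with edgeR 4.0.16 in R 4.3.3 (quasi-likelihood test, genotype and batch as terms, TMM factors over genes and TEs, filterByExpr by genotype, where the minimum count is 10 and the minimum total 15), with Benjamini-Hochberg adjustment over 20149 genes and 6602 TEs and a threshold of 0.05. The batch term came from wt, drm12 and cmt, the genotypes in both batches. CPM values are computed from counts and these factors. A count of 0 allows up to 3 counts, which covers counting error only. Depth at the common total is the expected number of rows when 14236575 counts are drawn. Replicates were not repeats of 1 library (chi-square per degree of freedom 9.62 to 115.5 over 6 pairs).

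Named genes and TEs are the 2 that rose and the 2 that fell with the largest difference of mean CPM among called rows whose groups do not overlap. The groups, rule and classes were chosen with earlier results of these data known. Gene lists by function were planned, but the identifiers could not be paired with names, so none was used. In data simulated for met/dnmt3b against wt over 26751 features, 32% of genes changed 2-fold, 86% of genes changed 4-fold, 37% of TEs raised 4-fold and 99% of TEs raised 16-fold were recovered. The changed features were drawn from those above a minimum mean level over the 20 libraries. That mean served as the wt level, and no batch difference was simulated. The TEs that rose had a median of 0.0224 CPM in wt, so these rates do not describe TEs that start near 0. DESeq2 1.42.0 was an alternative.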

Additional observations from a re-analysis of the deposited data

How the results depend on the processing

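The direction of the 8 named features and of the TE share kept its sign under every alternative computed for them. Their wt and met/dnmt3b libraries do not overlap, which for the features was a condition of being named, so a sign could hardly turn. Of 83 recomputed counts of calls, 46 stayed within 1.5 times. Against wt, the 1951 called genes became 2930 unfiltered, 1011 under separate adjustment of genes and TEs, 1212 without batch in the model, 4660 when drm12 was left out and, by alternatives chosen after seeing the data, 3292 with only the 5 batch 1 libraries and 4279 without drm12 replicate 3. The 3504 called TEs became 1151 with no batch term, 809 within batch 1 (1460 on the rows of the full fit), 550 with only the wt and met/dnmt3b libraries (fewer TEs tested) and 2264 with only the 5 batch 1 libraries. They became 3422 without drm12 replicate 3. Against met, the 1222 genes and 1052 TEs became 2390 and 1588 with no filter and 603 and 306 with no batch term, and DESeq2 called 1877 genes. Against dnmt3b, the 744 genes became 1468 with no filter and 1164 by DESeq2, and 2613 genes and 471 TEs were called with no batch term. Leaving out 1 library at a time gave 987 to 1822 genes and 1955 to 3208 TEs against wt, 69 to 1369 and 79 to 834 against met, and 383 to 599 and 987 to 1352 against dnmt3b. Same-numbered libraries of wt and met/dnmt3b did not deviate together (r = -0.152, -0.568 and -0.277 over 16796 genes), so the numbers were not taken as pairs. With the replicate block the calls were 1442 genes and 3033 TEs against wt, 644 and 562 against met, and 167 and 521 against dnmt3b. The cause of these moves was not tested. At this depth most TEs have few counts, and single TE values near 0 are limited by it.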
